A study of Mus musculus with 16 samples.

Results

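Chromatin accessibility at 9 Hedgehog pathway genes was examined in mouse pancreatic tumor cells growing in the pancreas, the liver or the lungs, with Smad4 silenced or restored. The genes were Gli1, Gli2, Gli3, Ptch1, Hhip, Smo, Sufu, Shh and Boc. An ATAC-seq peak, a stretch of chromatin open to transposase, was assigned to 1 of them when the nearest protein-coding start site to its midpoint was that gene's and lay within 100 kb. This rule gave 108 of the 136630 nuclear peaks: 26 for Gli2, 20 for Shh, 19 for Gli3, 16 for Ptch1, 13 for Hhip, 5 for Smo, 4 for Sufu, 3 for Boc and 2 for Gli1. The genes were named with results of these samples already known, and which accessibility values they were chosen by is not stated, so every comparison is counted as used. What follows is therefore a description of these loci, and a peak counted as called carries no independent weight. The last peak inside the limit lay 99.8 kb upstream of Shh, and the nearest ones outside lay 100.2 kb upstream of Ptch1 and 100.6 kb downstream of Gli2. That Gli2 peak averaged 68.6 and 49.6 normalized counts with Smad4 off and on in the pancreas, 40.1 and 32.2 in the liver, and 21.4 and 14.1 in the lungs.

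Hedgehog ligands such as Shh bind the receptor Ptch1, which otherwise holds the transducer Smo inactive, and Boc is a co-receptor for the ligand. Active Smo releases the zinc-finger factors Gli2 and Gli3 from the inhibitor Sufu. Gli2 is mainly an activator and Gli3 mainly a repressor, and Gli1, Ptch1 and Hhip, a decoy receptor for the ligand, are induced in turn as feedback targets. In pancreatic cancer the ligand is made by the epithelium and acts largely on stromal fibroblasts, while Gli factors in the tumor cells can also be driven by TGFβ. Smad4 is the shared partner of the receptor-activated SMADs in TGFβ signaling and is often lost in this cancer.

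All samples came from a mouse model of pancreatic cancer in which Ptf1a-Cre switches on the RIK allele (rtTA3-IRES-mKate2), and doxycycline induces a Smad4 short hairpin RNA linked to GFP from the Col1a1 locus. Tumor-derived lines were injected into 6- to 8-week-old Foxn1nu females, which lack T cells, at 100000 cells into the pancreas, 400000 into the spleen to reach the liver or 250000 into the tail vein to reach the lungs. The Smad4OFF groups stayed on doxycycline (3 pancreas, 2 liver and 3 lung mice), and the Smad4ON groups, of the same sizes, had it withdrawn for 14 days, starting 4 weeks (pancreas), 5 weeks (liver) or 6 weeks (lungs) after injection. The lung columns of the table carry a day count of 15 in their names where the sample labels give 14. From each mouse 60000 mKate2+ tumor cells were sorted. Each sample, named here by group and mouse (m1 to m3), was its own mouse, and which line and hairpin each received is not given in the sources used here. The hairpin acts on messenger RNA, so accessibility is no check of the Smad4 labels.

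The libraries held 22495044 to 37510981 reads in nuclear peaks, with a median of 36 to 76 reads per peak. Panc-Smad4ON m3 and Lung-Smad4OFF m1 stood apart from the other mice of their groups, with a chi-square per degree of freedom of up to 20.9 between mice of a group against a lowest value of 3.70. Start sites of all 7 ductal markers (Krt19, Epcam and others) were open in every sample, summing to 9419 to 16171 normalized counts in pancreas and lungs and 18351 to 25213 in the liver. The 7 fibroblast markers summed to 1977 to 3229 in pancreas samples, 921 to 1141 in liver samples and 1103 to 1592 in lung samples, with 1 of them, Col1a1, at the locus that holds the transgene. The hepatocyte markers, 6 of 7 with a peak, summed to 1252 to 1782 in the liver and 460 to 1000 elsewhere. The 5 endothelial markers summed to 89.4 to 137 in liver samples, 260 to 491 in pancreas samples and 150 to 904 in lung samples. The sum of 904 was that of Lung-Smad4OFF m1, with at most 491 in any other library. In bulk samples a smaller share of cells with open chromatin and less opening per cell cannot be told apart. Peak values are normalized counts, and locus values are sums over all peaks of a gene. A peak or locus was called when its log2 fold change was at least 0.58 in size with a Benjamini-Hochberg adjusted p of at most 0.1 in limma, adjusted over all 136630 peaks or all 17794 protein-coding genes with a peak.

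The sequences below come from the peaks on which the results turn, on mm10. The named peaks that hold a GLI motif, at Hhip and Ptch1, are shown first, then the Gli2 promoter and the Gli2 peaks that lost or kept accessibility, then the Gli3 and Shh peaks that separated the organs. Each is read on the plus strand except the Gli2 promoter, which is the 200 bases before the start site read on the gene's own minus strand. Capitals mark the motifs searched on both strands: GLI GACCACCCA, KLF GGGNGTGG, AP-1 TGANTCA, TEAD GGAATGT, ETS CCGGAAG, HNF1 GTTAATNAT and the SMAD box CAGAC. The core of the GLI motif resembles the CACCC box that KLF factors bind.
Hhip +37.1 kb, intron, chr8:80020737-80020896, with GLI: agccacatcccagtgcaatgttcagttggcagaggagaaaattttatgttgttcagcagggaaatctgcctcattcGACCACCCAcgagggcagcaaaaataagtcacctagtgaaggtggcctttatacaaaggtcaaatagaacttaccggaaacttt
Ptch1 +0.5 kb, promoter peak, chr13:63566359-63566518, with GLI and KLF: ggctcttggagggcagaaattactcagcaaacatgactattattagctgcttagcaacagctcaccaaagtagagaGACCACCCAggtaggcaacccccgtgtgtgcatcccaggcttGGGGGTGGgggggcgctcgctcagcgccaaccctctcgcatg
Gli2 +0.8 kb, promoter peak, chr1:119053620-119053819, with KLF: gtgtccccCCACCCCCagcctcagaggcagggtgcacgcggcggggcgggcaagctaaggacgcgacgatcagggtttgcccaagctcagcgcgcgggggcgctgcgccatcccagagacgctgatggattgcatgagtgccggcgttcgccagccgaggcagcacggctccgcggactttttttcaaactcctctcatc
Gli2 +5.5 kb, intron, chr1:119048055-119048214, with TEAD: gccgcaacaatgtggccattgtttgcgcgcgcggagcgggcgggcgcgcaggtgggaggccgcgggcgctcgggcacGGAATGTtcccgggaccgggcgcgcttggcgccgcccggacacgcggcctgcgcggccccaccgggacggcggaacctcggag
Gli2 +31.0 kb, intron, chr1:119022607-119022766, with 3 SMAD boxes, ETS and KLF: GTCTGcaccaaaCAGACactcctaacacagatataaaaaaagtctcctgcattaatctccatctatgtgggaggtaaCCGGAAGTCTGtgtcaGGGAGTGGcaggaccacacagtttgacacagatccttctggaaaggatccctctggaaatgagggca
Gli2 -69.7 kb, intergenic, chr1:119123516-119123675, with AP-1: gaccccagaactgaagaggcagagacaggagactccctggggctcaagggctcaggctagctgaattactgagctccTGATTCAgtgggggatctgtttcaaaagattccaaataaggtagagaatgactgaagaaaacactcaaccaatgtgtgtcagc
Gli3 -12.1 kb, intergenic, chr13:15451114-15451273, with AP-1 and a SMAD box: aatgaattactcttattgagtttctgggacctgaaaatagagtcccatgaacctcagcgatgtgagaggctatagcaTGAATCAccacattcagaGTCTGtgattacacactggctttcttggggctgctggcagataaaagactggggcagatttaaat
Shh -34.2 kb, intergenic, chr5:28501145-28501304, with a SMAD box and HNF1 on both strands: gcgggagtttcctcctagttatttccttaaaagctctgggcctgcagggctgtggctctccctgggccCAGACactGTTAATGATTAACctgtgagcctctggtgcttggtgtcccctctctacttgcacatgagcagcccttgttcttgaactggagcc
Distances run from the peak's midpoint to the nearest start site of the gene, positive downstream. In the Gli2 +31.0 kb sequence the ETS motif and 1 SMAD box share a base, and in the Shh sequence the HNF1 matches on the 2 strands overlap.

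Gli2 lost accessibility on Smad4 restoration in all 3 organs. The gene spans 219 kb of chromosome 1 (118834132-119053619, minus strand). At its promoter peak (+0.8 kb) the normalized counts were 1051, 957 and 1021 in Panc-Smad4OFF and 644, 493 and 346 in Panc-Smad4ON. In the liver they were 1265 and 1130 with Smad4 off and 325 and 256 with Smad4 on. In the lungs they were 792, 926 and 1021 with Smad4 off and 250, 309 and 356 with Smad4 on. Every restored sample was thus below every Smad4-off sample, in each organ and across organs. The log2 fold changes in pancreas, liver and lungs were −1.07 ± 0.19 (SE), −2.05 ± 0.23 and −1.59 ± 0.19, each of them called.

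The intronic peak at +5.5 kb, in a CpG-rich stretch (78.1% GC, with 29 CpG in the 160 bases printed), gave 217, 195 and 203 counts in Panc-Smad4OFF against 78.2, 75.5 and 70.5 in Panc-Smad4ON. The liver samples held 348 and 344 against 157 and 87.3, and the lung samples 189, 229 and 215 against 56.2, 66.1 and 77.5. Again no restored sample reached a Smad4-off sample of any organ. The log2 fold changes were −1.44 ± 0.22, −1.55 ± 0.27 and −1.66 ± 0.22 in pancreas, liver and lungs.

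Values deeper in the gene went lower still in pancreas and liver. The +31.0 kb peak fell in the pancreas from 453, 369 and 330 to 29.3, 74.3 and 42.2, a log2 fold change of −3.05 ± 0.31. In the liver it fell from 642 and 534 to 102 and 113, or −2.43 ± 0.38. In the lungs it held 230, 431 and 427 with Smad4 off and 77.5, 121 and 124 with Smad4 on, a difference of −1.72 ± 0.31 with no overlap of the groups that was not called. The +49.0 kb peak gave 330, 288 and 279 against 61.3, 96.6 and 42.9 in the pancreas and 239 and 167 against 37.3 and 18.3 in the liver, both called. Its lung values were 128, 256 and 303 against 62.9, 56.6 and 74.7, again apart and not called.

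**Figure D1:**
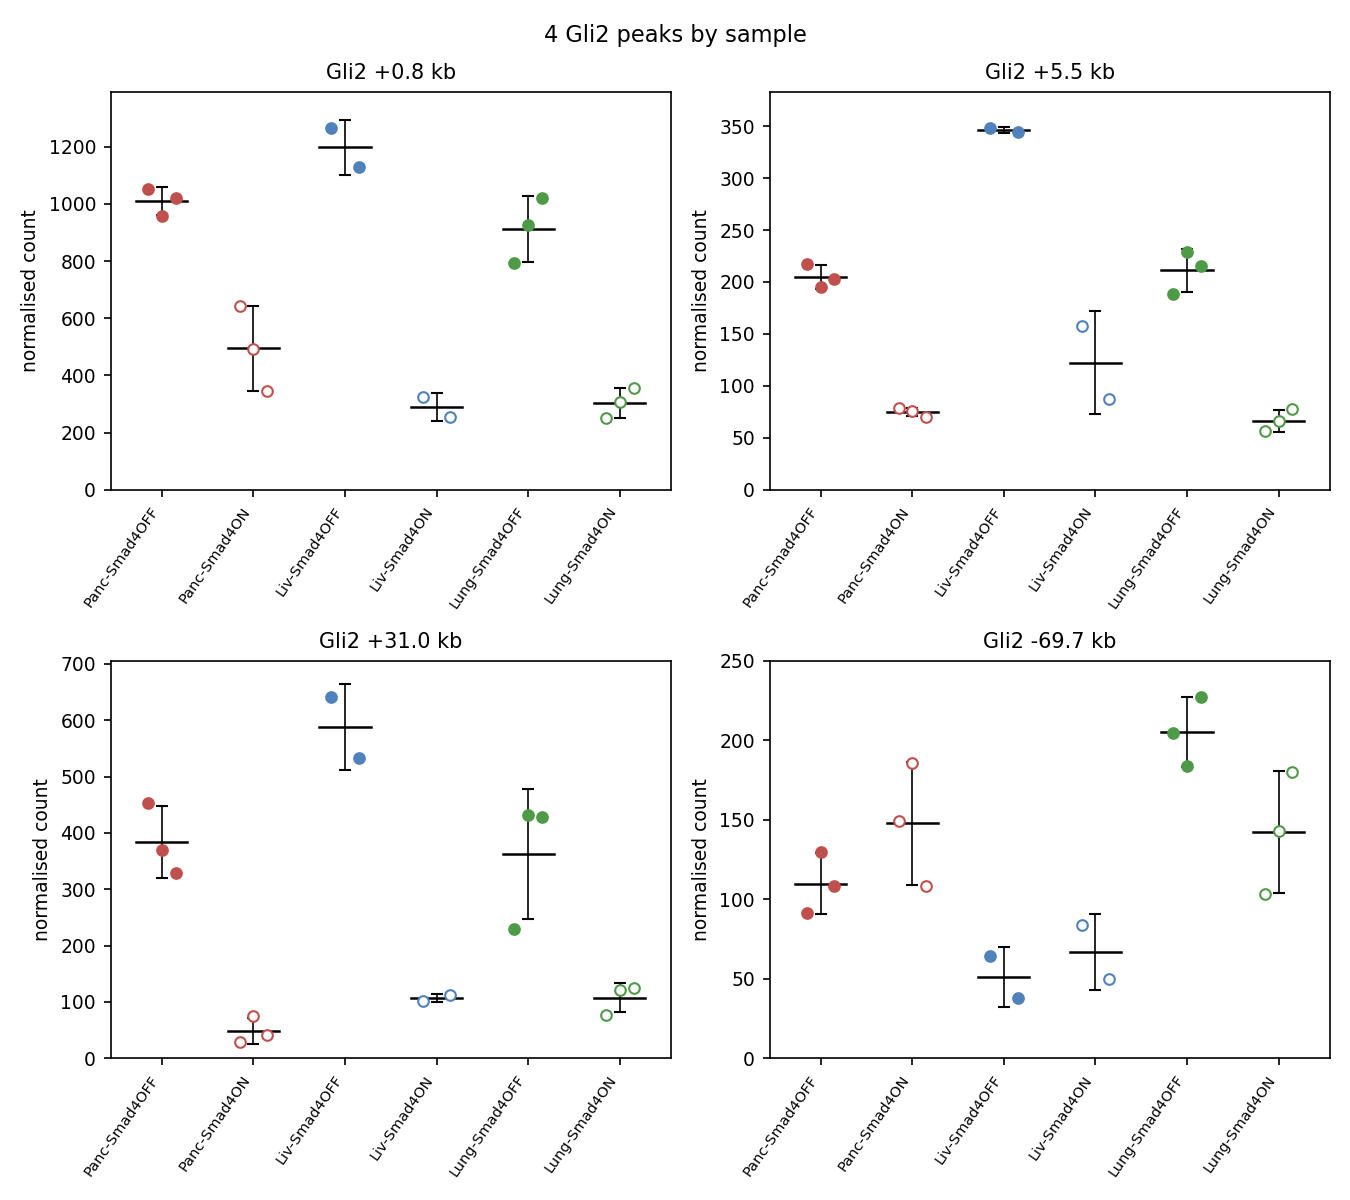
Normalized counts of 4 Gli2 peaks in each sample, by group (filled, Smad4 off; open, Smad4 on; black lines, group means; bars, SD; n = 3, 3, 2, 2, 3 and 3 mice from left to right). At +0.8, +5.5 and +31.0 kb every open symbol lies below the filled symbols of its organ, from 1010 to 495, 1197 to 290 and 913 to 305 on average at +0.8 kb, whereas at −69.7 kb the open and filled symbols overlap in pancreas and liver.

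The lower values ran along the gene body and were less regular upstream. Of the 18 Gli2 peaks from the start site to +100 kb, 17 had a negative log2 fold change in all 3 organs, and in 12 all restored samples were below all Smad4-off samples in each organ. Of the 8 peaks 53.0 to 99.3 kb upstream, 3 and 1 did so, and of the 82 peaks of the other 8 genes, 10 and 1. Over all 136630 peaks the same 2 patterns held for 19.5% and 0.57%. The median log2 fold changes of the body peaks in pancreas, liver and lungs were −1.38, −1.60 and −1.68, against 0.22, 0.01 and −0.75 upstream, and medians over all peaks of 0.04, 0.02 and 0.00. The ductal marker sums were also lower with Smad4 on in pancreas (11317 to 12908 off, 9419 to 11276 on) and liver (23287 to 25213 off, 18351 to 22680 on), with overlap in the lungs (12557 to 16171 and 13004 to 13848). The median log2 fold changes of the 7 ductal peaks were −0.48, −0.36 and −0.09, with none of the peaks called in a single organ. With restoration averaged over the organs 1 of the 7 was called lower, where 3% of all peaks were, and their median was −0.31. The part of the ductal markers in the Gli2 values was not tested. The division into body and upstream peaks was made after their values had been seen. A further 11 peaks in the body beyond 100 kb, outside the rule, were negative in 11 (pancreas), 9 (liver) and 11 (lungs) cases. The 103 peaks of other genes within 1 Mb of Gli2 had medians of −0.13, −0.12 and −0.13, all closer to 0 than those of the Gli2 body.

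**Figure D2:**
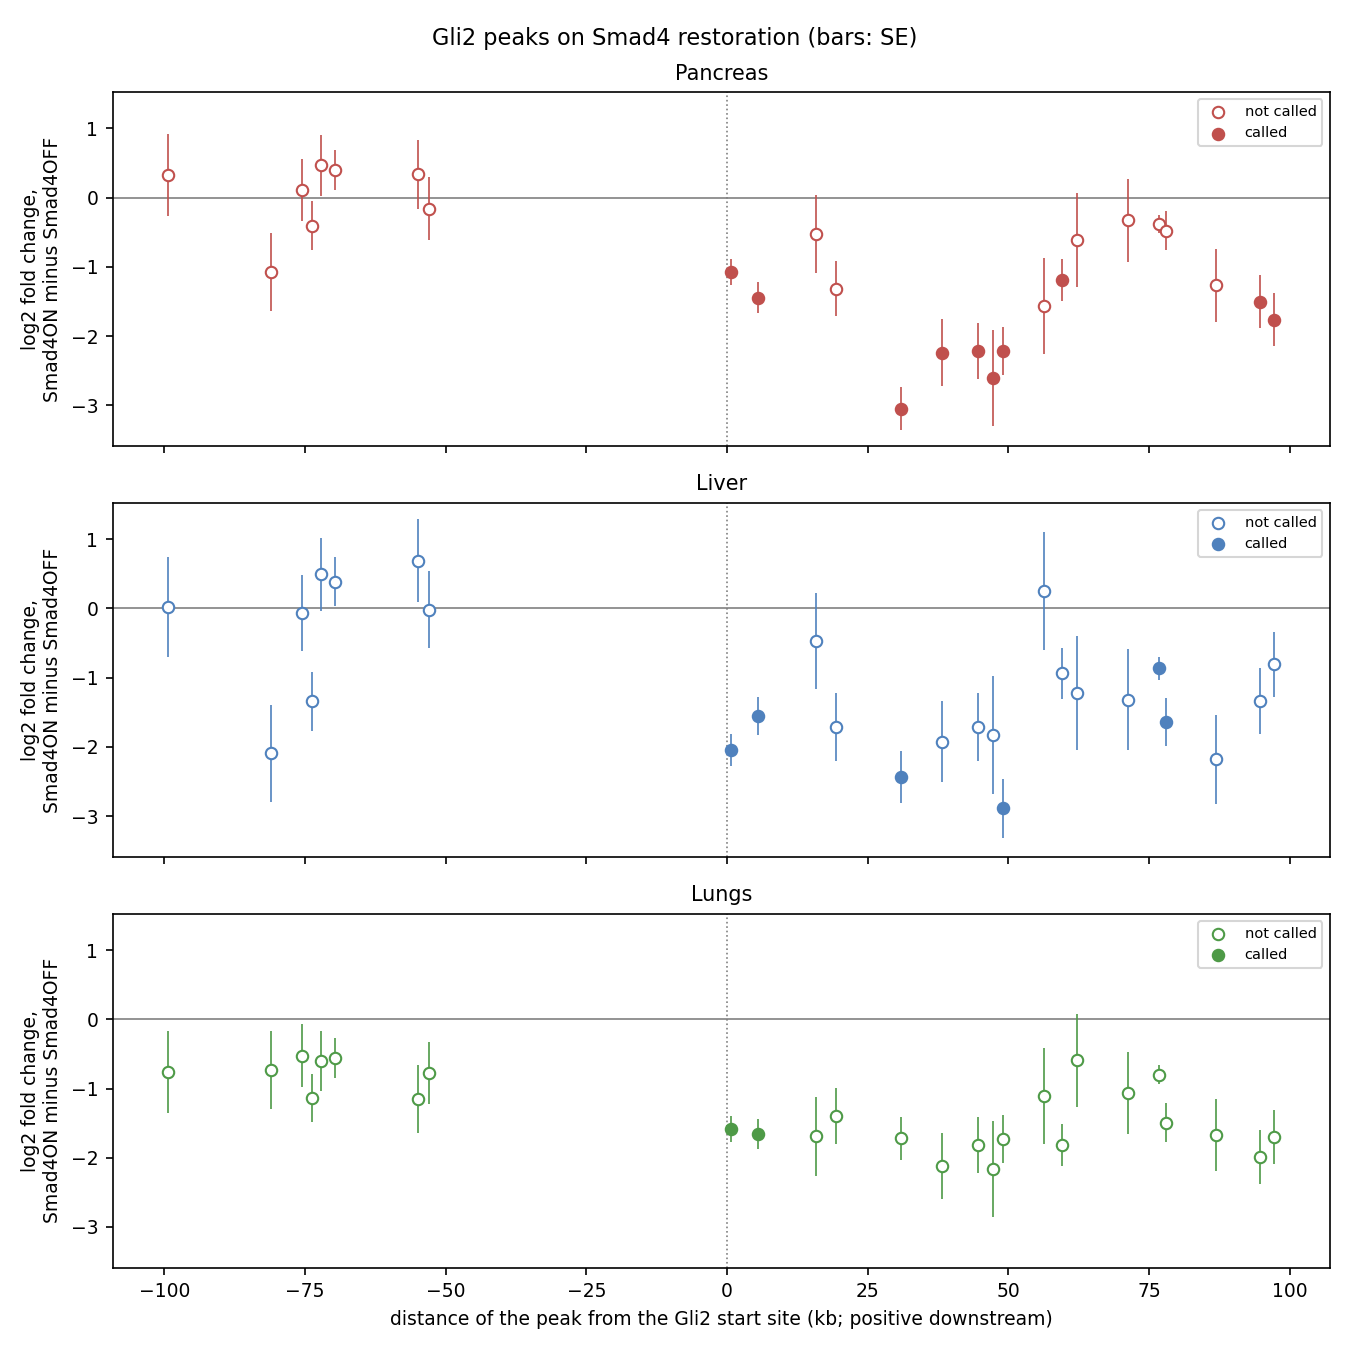
Log2 fold change on Smad4 restoration (Smad4ON minus Smad4OFF, with SE) of each of the 26 Gli2 peaks against its distance from the Gli2 start site in kb, in pancreas, liver and lungs; filled points were called. The 18 points from the start site onward lie below 0 in every organ except for 1 in the liver, and the 8 upstream points scatter around 0 in pancreas and liver.

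Upstream, the −69.7 kb peak illustrates the contrast with the gene body. It held 91.4, 130 and 108 counts in Panc-Smad4OFF and 149, 186 and 108 in Panc-Smad4ON, 64.2 and 37.6 against 83.9 and 49.8 in the liver, and 204, 184 and 227 against 103, 143 and 180 in the lungs. Smad4-off and restored samples overlapped in pancreas and liver and stood apart only in the lungs, where the difference of −0.56 ± 0.29 was not called. Of the 8 upstream peaks 2 were called lower on average over the organs. At −73.7 kb all restored samples were lower in each organ, with an average log2 fold change of −0.96 ± 0.22. At −81.0 kb, a peak of at most 39.3 counts, the average was −1.30 ± 0.35, with the groups apart in liver and lungs and overlapping in the pancreas.

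Counted over all 9 genes, 15 of the 108 peaks were called lower on Smad4 restoration in the pancreas and none higher. Of all peaks 3.42% were called, 0.364% as higher and 3.06% as lower. Of the 15, 10 were Gli2 body peaks, 3 belonged to Shh, 1 to Gli3 and 1 to Smo. In the liver 6 peaks were called, all lower and all in the Gli2 body, with 0.55% of all peaks called and 0.0886% called lower. In the lungs 2 were called, the Gli2 peaks at +0.8 and +5.5 kb, where 5 of the 136630 peaks were called in all (0.00366%, with 0.00146% higher and 0.0022% lower). With restoration averaged over the organs, 18 peaks were lower and 3 higher, against 3% and 3.61% of all peaks (6.62% called), and Gli2 held 16 of the 18. The median log2 fold change of the 82 peaks outside Gli2 was 0.01, 0.19 and −0.03 in pancreas, liver and lungs.

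These counts depended on single libraries, as did the share of all peaks called. Without Panc-Smad4OFF m1, Panc-Smad4OFF m2 or Panc-Smad4ON m1 the pancreas count was 8, 6 or 9. Of all peaks 0.908%, 0.332% and 1.23% were called in these fits, against 3.42% with all mice. The liver count fell too without Liv-Smad4OFF m1 or Liv-Smad4ON m1, as did the share of all peaks called. Such a fit leaves a single mouse in the group, so its count is not given. In the lungs it was 4 without Lung-Smad4OFF m1 (0.0124% of all peaks called) and 1 without Lung-Smad4OFF m2 (0.0022%). It was also 1 without Lung-Smad4ON m3 (0.000732%) and 0 without Lung-Smad4ON m2 (0%). It was 1 with the mouse number as a block in all organs (0.000732% of all peaks called) and 5 with a block for the lung mice only (0.03%), all of them Gli2 body peaks. Without both libraries that stood apart, the pancreas count was 19 and the lung count 8, again all 8 in the Gli2 body (6.34% and 0.125% of all peaks called).

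**Figure D3:**
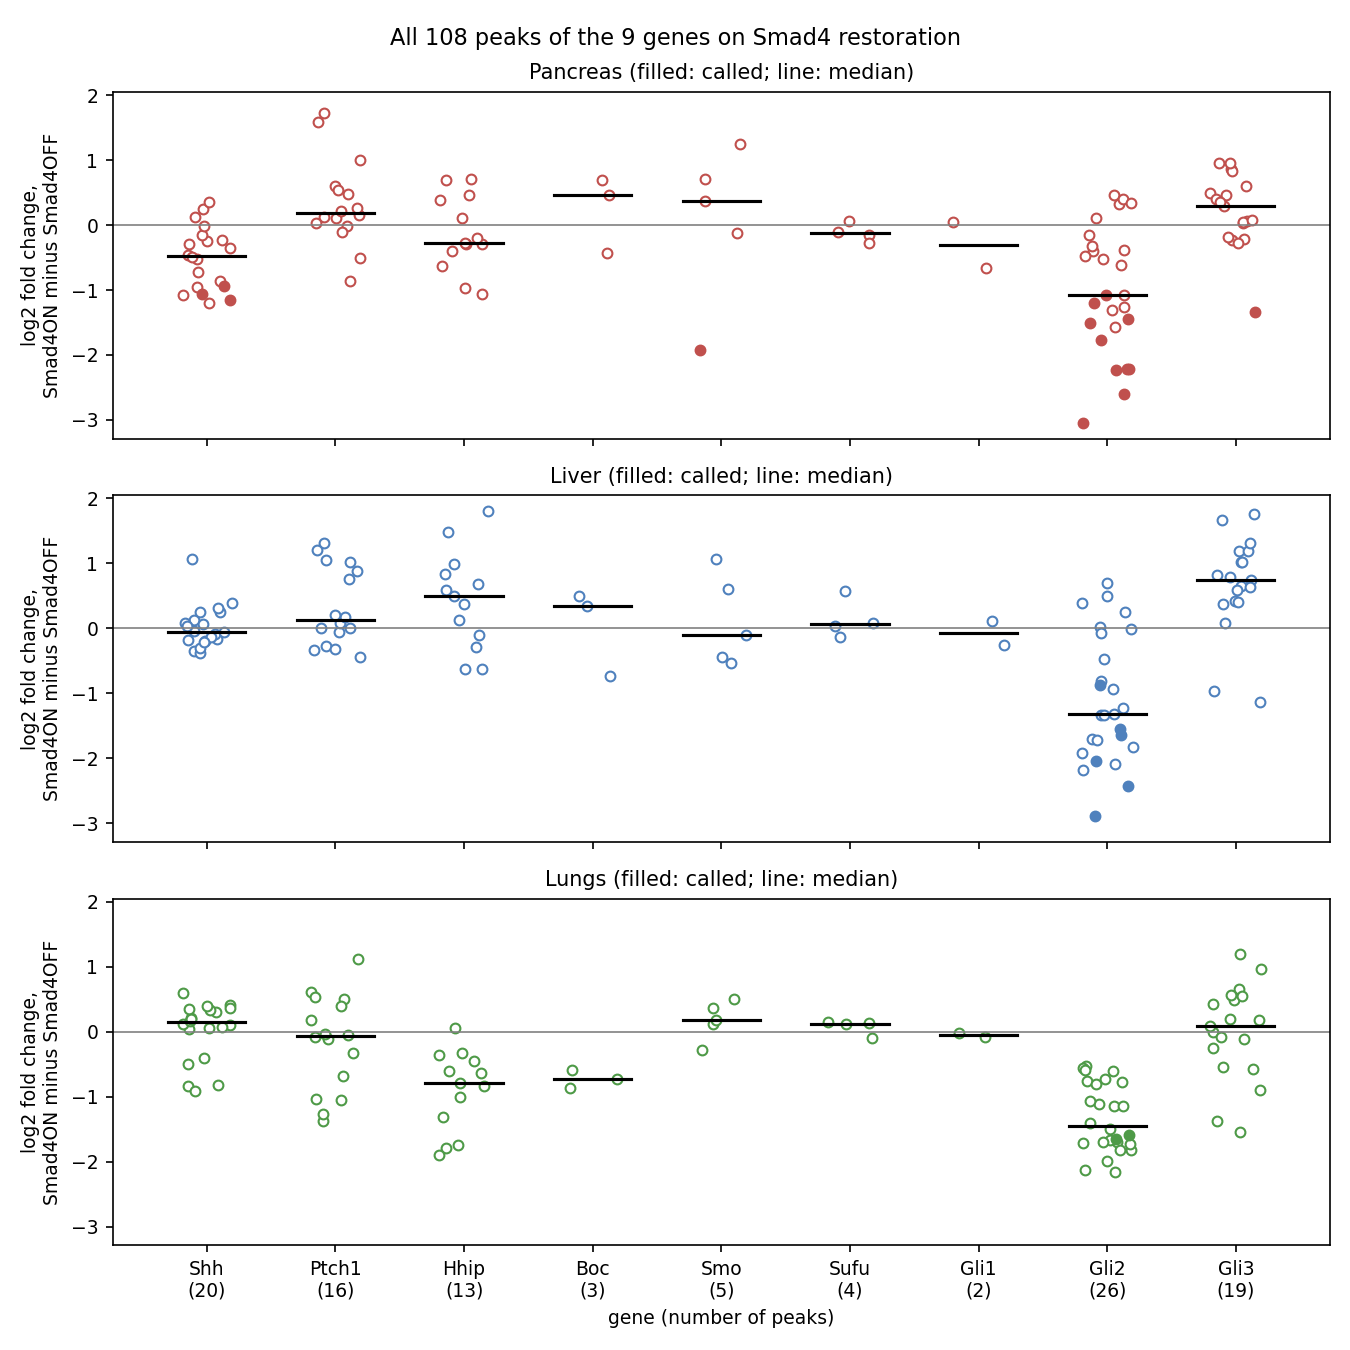
Log2 fold change on Smad4 restoration of all 108 peaks, by gene, in pancreas, liver and lungs (each point a peak; filled points were called; black line, median of the gene's peaks). Gli2 has medians of −1.07, −1.32 and −1.45, below those of the other 8 genes in each organ, and points of the other genes are called in the pancreas only.

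The size of the change on restoration was also compared between organs, as a difference of differences. No peak of any gene was called in limma (0 of 136630, 0% of all peaks, in each of the 3 comparisons), and at an unadjusted p under 0.05 there were 7 Hedgehog peaks for liver against lungs, 6 for liver against pancreas and 23 for lungs against pancreas, against 5.25%, 3.95% and 11% of all peaks. edgeR called none of the 108, and DESeq2 called 5 for lungs against pancreas, with 1.65% of all peaks called, and none of the 108 in the other comparisons. With the lung mice paired by number limma called 6 for lungs against pancreas, with 1.75% of all peaks called. Without Lung-Smad4OFF m2 it called 5, with 2.93% of all peaks called. None of these peaks were Gli2 peaks in the DESeq2 or the paired fit. Both named the Shh peaks at −95.9, −34.2 and +54.9 kb and Smo +8.6 kb, which were called lower in the pancreas and not called in the lungs.

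Summed over its 26 peaks, the Gli2 locus held 5358 ± 310 counts (SD, n = 3) in Panc-Smad4OFF and 3622 ± 966 in Panc-Smad4ON. It held 4373 ± 401 and 1730 ± 609 in the liver (n = 2 each) and 4860 ± 799 and 2134 ± 334 in the lungs (n = 3 each). The restored samples of each organ were all below its Smad4-off samples. The log2 fold changes of −0.60 ± 0.21, −1.38 ± 0.26 and −1.19 ± 0.21 were not called in any single organ, and their average of −1.06 ± 0.13 was, the only one of the 9 loci called on restoration (1.51% of all loci called). In the single organs 2.13%, 0.0562% and 0.0112% of all loci were called. With only the peaks of the gene body or within 10 kb, the values were −0.95, −1.59 and −1.37 and all were called. That sum leaves out the upstream peaks, where the median changes were smaller, so it adds no independent weight. The share of all loci called with it is not given here.

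**Figure D4:**
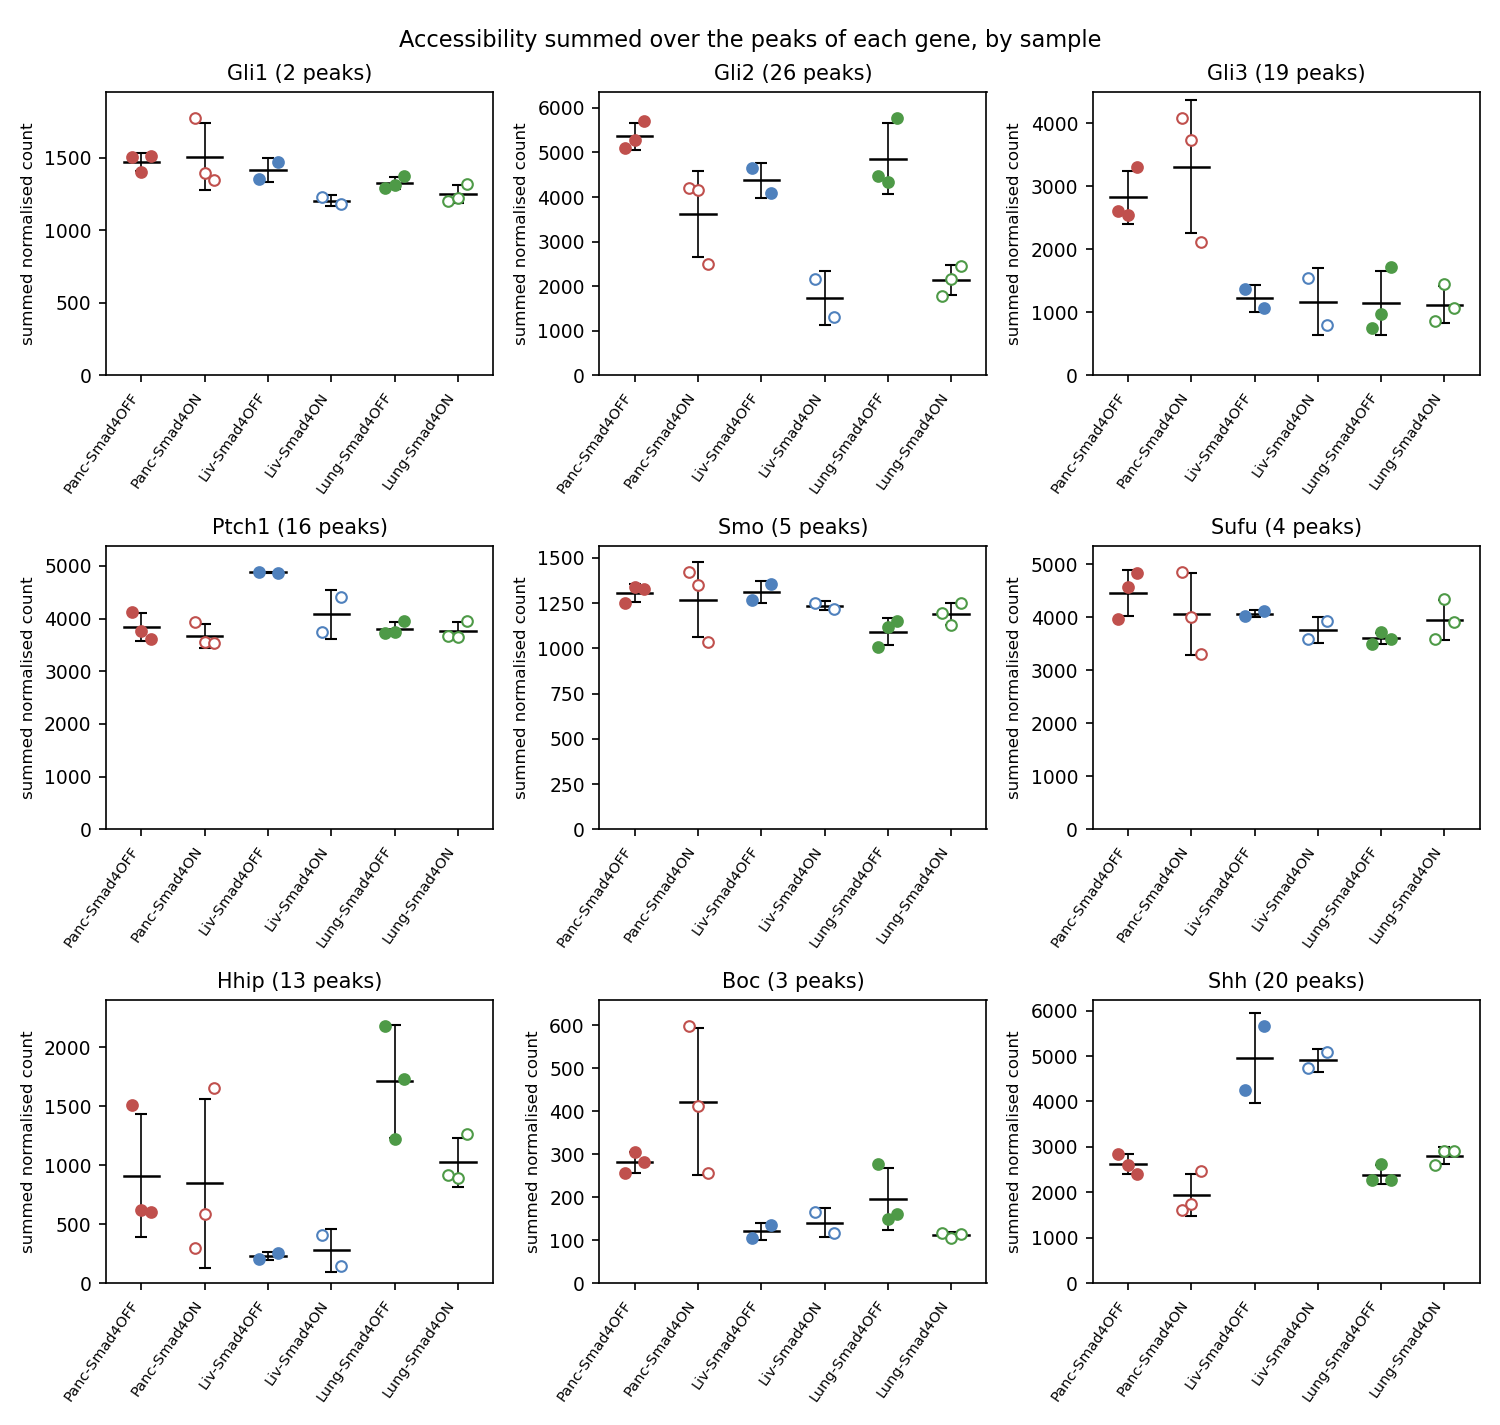
Normalized counts summed over the peaks of each of the 9 genes, for every sample by group (filled, Smad4 off; open, Smad4 on; black lines, group means; bars, SD). Gli2 is lower with Smad4 on in each organ, Gli3 and Boc are highest in the pancreas, Hhip is lowest in the liver, Shh is highest in the liver, and Gli1, Smo and Sufu vary little.

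With Smad4 off, Gli2 differed between organs peak by peak more than as a whole. Its locus sum was not called in any comparison between Smad4-off groups, where 5.74% to 36.8% of all loci were. Of its 26 peaks, 5 were called higher and 11 lower in Liv-Smad4OFF than in Lung-Smad4OFF, and likewise 5 and 11 against Panc-Smad4OFF. Over the 9 genes 26 peaks were higher and 37 lower in the first comparison, where 22.9% and 26.8% of all peaks were (49.7% called). In the second 25 were higher and 52 lower, where 26.2% and 32.3% of all peaks were (58.5% called). The lower ones included the upstream peak at −75.6 kb, with 270, 368 and 361 counts in Panc-Smad4OFF, 51.8 and 40.4 in Liv-Smad4OFF and 376, 204 and 414 in Lung-Smad4OFF. The liver values were below all others, and the log2 difference was −2.82 ± 0.50 from the pancreas and −2.77 ± 0.50 from the lungs. The peak at −54.9 kb showed the same order, with 202, 233 and 266, then 44.4 and 26.5, then 412, 173 and 488.

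At +94.8 and +97.3 kb in the gene the order was the reverse. The peak at +97.3 kb held 55.5, 86.7 and 65.8 counts in Panc-Smad4OFF, 260 and 266 in Liv-Smad4OFF and 48.8, 103 and 43.9 in Lung-Smad4OFF, so the liver was highest by a log2 difference of 1.93 ± 0.43 and 2.10 ± 0.43. At +94.8 kb the liver again stood above both, by 2.51 ± 0.43 from the pancreas and 1.74 ± 0.43 from the lungs. The order did not hold farther down the gene. Of the 11 body peaks beyond 100 kb, outside the rule, 2 were called higher and 7 lower in the liver than in the pancreas with Smad4 off. Against the lungs 3 were higher and 1 lower. Of all peaks 26.2% and 32.3% were so called against the pancreas, and 22.9% and 26.8% against the lungs. Another pattern was seen at +19.4 kb, where the pancreas was highest with 293, 323 and 423 counts against 120 and 66.9 in the liver and 62.6, 78.2 and 107 in the lungs. All 3 patterns stood with Smad4 on as well, at lower levels in the body peaks: at +97.3 kb the restored samples held 14.2, 34.7 and 14.6 in the pancreas, 156 and 144 in the liver and 27, 13.4 and 15.9 in the lungs.

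After restoration the Gli2 locus sum was lower in the liver and the lungs than in the pancreas, by −1.07 ± 0.24 and −0.74 ± 0.21, both called (35.9% and 14% of all loci were called in these comparisons). At the promoter peak the same differences were −0.73 ± 0.21 and −0.67 ± 0.19, with Panc-Smad4ON m3 (346) within the range of the lung samples. Comparisons between organs share samples with one another and are set side by side only.

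The 5 genes whose locus sums followed that of Gli2 most closely over the 16 samples, among 7779 with at least 5 peaks, were Keg1 (Pearson r = 0.889), Fars2 (0.840), Selenon (0.836), Tlr13 (0.802) and Plekhf1 (0.772). The 16 points fall in 6 groups and share library effects, so these values are a description. No other gene of the Hedgehog pathway was among them.

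Gli3 was most accessible in the pancreas. The gene covers 267 kb of chromosome 13 (15463235-15730026, plus strand). At its promoter peak (+0.4 kb) the counts were 887, 868 and 1144 in Panc-Smad4OFF, 189 and 142 in Liv-Smad4OFF and 246, 273 and 632 in Lung-Smad4OFF. With Smad4 on they were 1517, 1343 and 786 in the pancreas, 500 and 152 in the liver and 307, 534 and 388 in the lungs. All 6 pancreas samples were above all 10 samples of the other organs. Among Smad4-off groups the liver lay below the pancreas by a log2 difference of −2.54 ± 0.44 and the lungs by one of −1.46 ± 0.39. Of the 19 Gli3 peaks, 18 were called lower in the liver and 17 in the lungs than in the pancreas with Smad4 off, and 17 and 17 with Smad4 on. Over the 9 genes, lungs minus pancreas gave 9 higher and 24 lower peaks with Smad4 off, against 6.59% and 10.7% of all peaks (17.3% called). Without Panc-Smad4OFF m3 it gave 14 in all, a fit whose share of all peaks is not given here. With Smad4 on it gave 11 and 29, against 12.8% and 14.9% (27.8% called). Liver minus pancreas with Smad4 on gave 30 and 49, against 27.1% and 32.2% (59.4% called). Fewer were called without Liv-Smad4ON m2, which leaves a single mouse in that group.

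Values near 0 were common outside the pancreas. The intergenic peak at −12.1 kb held 114, 93.8 and 105 counts in Panc-Smad4OFF, 18.5 and 5.57 in Liv-Smad4OFF and 27.6, 21.7 and 44.8 in Lung-Smad4OFF, and 135, 187 and 124, then 24.5 and 14.2, then 37.1, 63.3 and 28.9 with Smad4 on. It separated the pancreas from both metastatic sites by a log2 difference of −3.21 ± 0.46 for the liver and −1.76 ± 0.41 for the lungs with Smad4 off. The locus sum averaged 2822 ± 422 and 3310 ± 1050 in Panc-Smad4OFF and Panc-Smad4ON (n = 3 each), against 1218 ± 217 and 1164 ± 529 in the liver (n = 2 each) and 1148 ± 511 and 1122 ± 294 in the lungs (n = 3 each).

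One Gli3 peak ran against the others. At +74.0 kb the counts were 442, 447 and 363 in Panc-Smad4OFF and 156, 184 and 150 in Panc-Smad4ON, 857 and 674 against 406 and 375 in the liver, and 152, 398 and 414 against 191, 300 and 258 in the lungs. It was highest in the liver, and it fell on restoration in the pancreas by 1.34 on the log2 scale (SE 0.29) and on average over the organs by 0.85. This peak made up most of the Liv-Smad4OFF locus sums of 1371 and 1064. It was a smaller part of the Lung-Smad4OFF sums of 745, 976 and 1723. The peak at −21.0 kb rose on average over the organs by 1.04 ± 0.29, from 70, 56.3 and 102 to 198, 141 and 106 counts in the pancreas.

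Other loci and markers moved with Gli3. The 67 peaks of other genes within 1 Mb of Gli3 had a median log2 difference of −1.57 for liver minus pancreas with Smad4 off, against −0.05 over all peaks. For lungs minus pancreas that median was −0.06, near the 0.03 of all peaks, beside a median of −2.14 over the Gli3 peaks themselves. All 7 fibroblast marker peaks were called lower in the liver than in the pancreas with Smad4 off, and 4 of 7 were in the lungs. Pdgfra held 30.7 to 105 counts in pancreas samples and 2.79 to 16.6 elsewhere, and Dcn 49.8 to 196 and 11.1 to 23.4. The part of fibroblast chromatin in the Gli3 values was not tested.

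**Figure D5:**
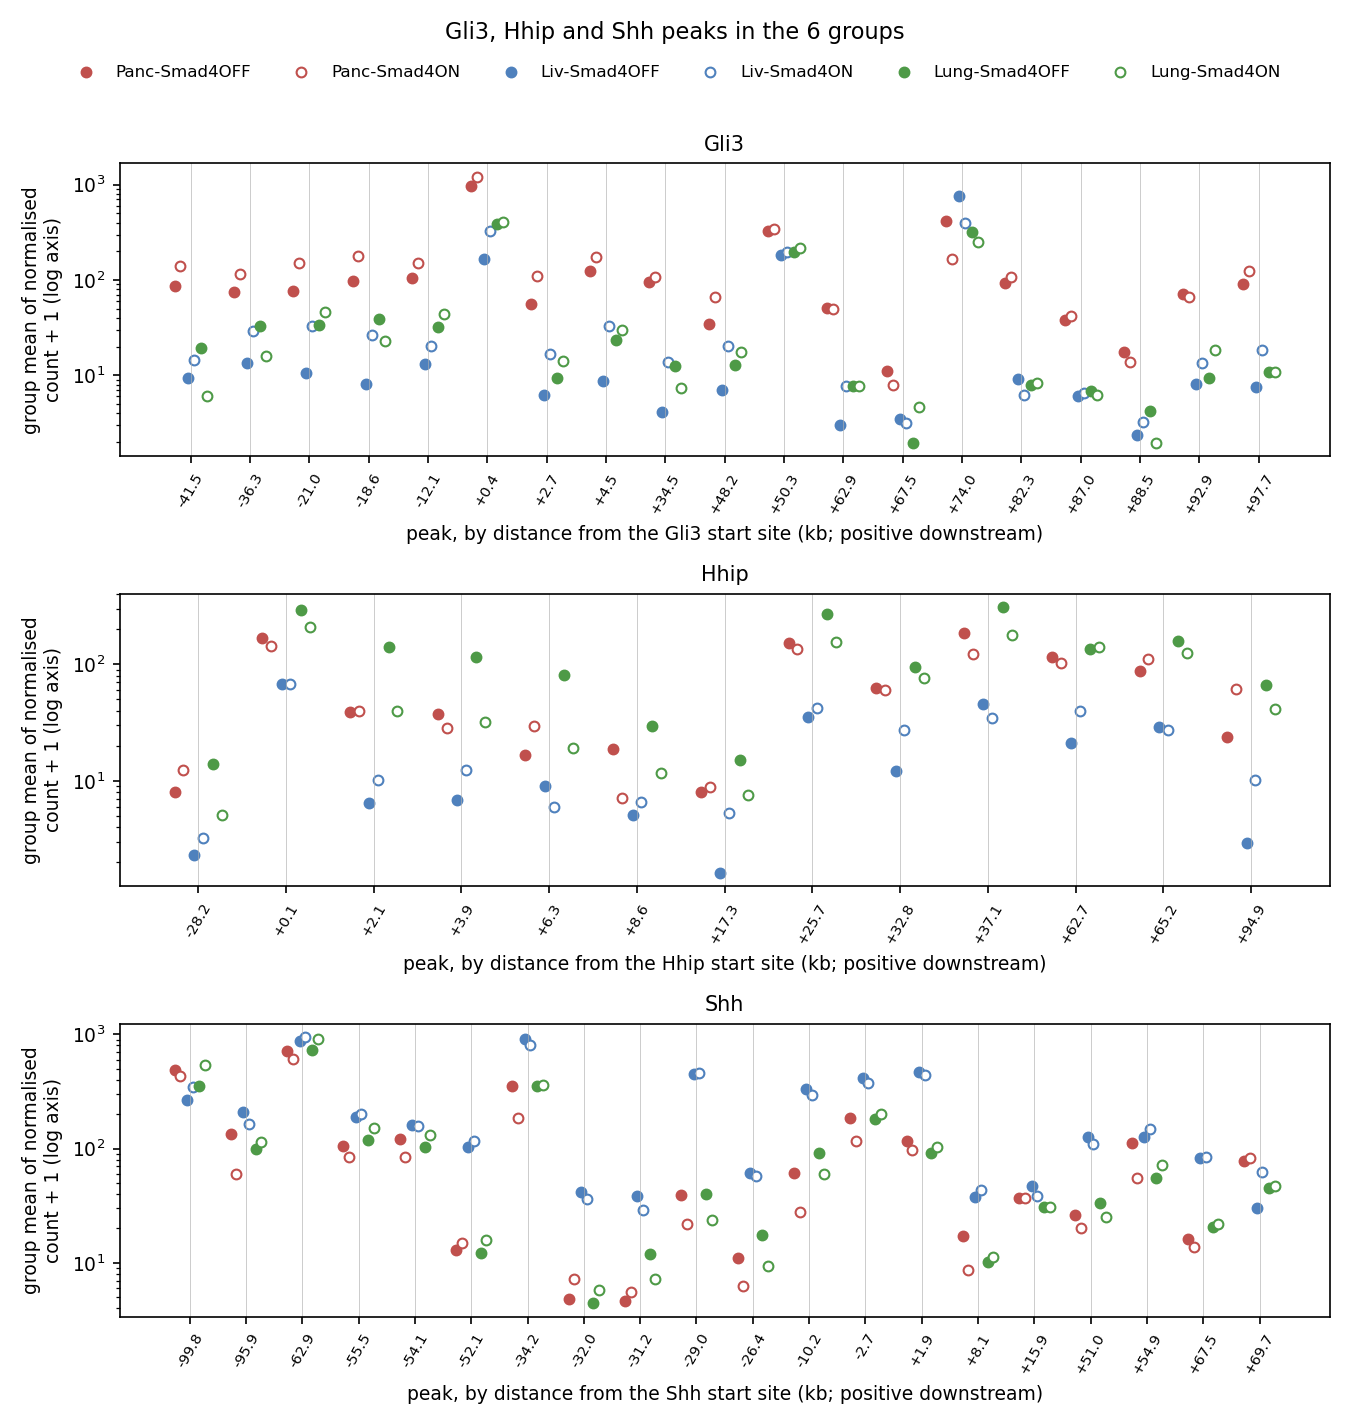
Group means of the normalized count + 1 (log axis) for each peak of Gli3, Hhip and Shh, ordered by distance from the gene's start site in kb (filled, Smad4 off; open, Smad4 on). At Gli3 the pancreas groups lie above the others at every peak but +74.0 kb, at Hhip the liver groups lie lowest at most peaks, and at Shh the liver groups lie highest from −52.1 to +1.9 kb.

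Hhip, the decoy receptor, was least accessible in the liver. All 13 of its peaks were called lower in Liv-Smad4OFF than in Lung-Smad4OFF, and 11 than in Panc-Smad4OFF, where 26.8% and 32.3% of all peaks were called lower. Its promoter peak (+0.1 kb; the gene lies at 79965851-80058006 on chromosome 8, minus strand) held 65.4 and 66.9 counts in Liv-Smad4OFF, 348, 174 and 356 in Lung-Smad4OFF and 269, 120 and 116 in Panc-Smad4OFF. The intronic peak with the GLI motif (+37.1 kb) held 38.3 and 50.2, then 318, 262 and 349, then 319, 122 and 116. With Smad4 on the liver samples held 51.2 and 15.2, the lung samples 140, 153 and 235 and the pancreas samples 29.3, 75.5 and 261. The liver lay below the lungs in each case, by a log2 difference of −2.78 ± 0.67 with Smad4 off and −2.57 ± 0.67 with Smad4 on, while the spread between pancreas mice spanned nearly the whole range. The locus sums show the same spread, at 1512, 624 and 600 in Panc-Smad4OFF and 300.5, 584 and 1656 in Panc-Smad4ON, with Panc-Smad4ON m3, a library that stood apart, highest. In the lungs they were 2182, 1225 and 1734 with Smad4 off and 914, 895 and 1262 with Smad4 on. No Hhip peak was called on restoration. Endothelial marker sums were also lower in every liver sample than in the other organs, as given above. Of the 5 endothelial start-site peaks, 3 were called lower in the liver than in the lungs with Smad4 off and 4 than in the pancreas, and none higher. Lung-Smad4OFF m1 had both the highest endothelial sum and the highest Hhip sum. The part of endothelial or fibroblast chromatin in the Hhip values was not tested.

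Boc, the co-receptor, had 3 peaks. Its promoter peak (+0.5 kb; 44485049-44558897 on chromosome 16, minus strand) held 203, 246 and 222 counts in Panc-Smad4OFF, 55.5 and 51.5 in Liv-Smad4OFF and 144, 65.2 and 81.9 in Lung-Smad4OFF. With Smad4 on it held 503, 352 and 164 in the pancreas, 97.8 and 47.7 in the liver and 53.9, 53.7 and 42 in the lungs. All pancreas samples exceeded all samples of the other organs, as at the Gli3 promoter, by log2 differences of −2.04 ± 0.42 (liver minus pancreas) and −1.28 ± 0.37 (lungs minus pancreas) with Smad4 off. The fibroblast marker sums given above had the same order. The part of fibroblast chromatin in the Boc values was not tested.

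Shh, the ligand, was most accessible in the liver. Its start-site peak (+1.9 kb; 28456815-28467256 on chromosome 5, minus strand) held 373 and 561 counts in Liv-Smad4OFF and 401 and 480 in Liv-Smad4ON. In the pancreas it held 145, 127 and 77.8 with Smad4 off and 84.4, 99 and 106 with Smad4 on, and in the lungs 77.3, 101 and 95.6 and then 129, 86.3 and 94.2. Every liver sample was thus above every other sample, by a log2 difference of 2.01 ± 0.28 from the pancreas and 2.32 ± 0.28 from the lungs with Smad4 off. Of the 20 Shh peaks, 16 were called higher in the liver than in the lungs and none lower with Smad4 off. Against the pancreas 14 were higher and 2 lower. With Smad4 on, 13 were higher and 1 lower than in the lungs, and 17 higher and none lower than in the pancreas. Over the 9 genes, liver minus lungs with Smad4 on gave 23 higher and 25 lower peaks, against 17.6% and 18.2% of all peaks (35.8% called). Fewer were called without Liv-Smad4ON m2, which leaves a single mouse in that group.

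The organ difference was larger still at the −29.0 kb peak, though not at all upstream peaks. Over the 20 Shh peaks the median log2 difference of the liver with Smad4 off was 1.26 from the pancreas and 1.55 from the lungs. The −29.0 kb peak held 40.1, 33.9 and 40.7 counts in Panc-Smad4OFF, 321 and 584 in Liv-Smad4OFF and 29.5, 52.2 and 34.5 in Lung-Smad4OFF, or log2 differences of 3.47 ± 0.50 and 3.49 ± 0.50. With Smad4 on it held 439 and 471 in the liver and at most 38.4 in any other sample. The −34.2 kb peak, whose printed sequence holds the HNF1 motif, gave 826 and 1002 in Liv-Smad4OFF, 393, 338 and 324 in Panc-Smad4OFF and 287, 425 and 334 in Lung-Smad4OFF. It fell on restoration in the pancreas to 170, 165 and 215, by −0.94 ± 0.17. In the liver it held 785 and 840 and in the lungs 305, 402 and 367, where the changes of −0.16 ± 0.21 and 0.05 ± 0.17 were not called. The peaks at −95.9 and +54.9 kb were also called lower on restoration in the pancreas, by −1.15 ± 0.26 and −1.06 ± 0.30. The hepatocyte and ductal marker sums were higher in the liver too, as given above, and 66 peaks of other genes within 1 Mb of Shh had a median log2 difference of 0.15 between liver and pancreas with Smad4 off. Of the 6 hepatocyte markers with a peak, 4 were called higher in the liver than in the pancreas with Smad4 off (median log2 difference 1.15) and 4 than in the lungs (1.03), and none lower. Alb, one of the others, held 13.6 to 20.9 counts in the liver samples and 5.37 to 27.3 elsewhere. The part of hepatocyte chromatin in the Shh values was not tested.

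The receptor Ptch1, the transducer Smo, the inhibitor Sufu and the target Gli1 kept open start sites in all groups. The Ptch1 promoter peak (+0.5 kb; 63508328-63573598 on chromosome 13, minus strand), with the GLI motif, held 3292, 2930 and 2914 counts in Panc-Smad4OFF and 3117, 2680 and 2715 in Panc-Smad4ON, 4236 and 4098 against 3048 and 3602 in the liver and 2810, 3093 and 2782 against 2716, 2756 and 2910 in the lungs. Liv-Smad4OFF was above both other Smad4-off groups without overlap, by 0.45 ± 0.09 and 0.53 ± 0.09 on the log2 scale, which is under the fold threshold. The Gli1 start-site peak (+1.3 kb; 127329882-127341974 on chromosome 10, minus strand) ranged from 1076 to 1741 over the 16 samples, Smo (+0.5 kb; 29735503-29761365 on chromosome 6, plus strand) from 846 to 1303, and Sufu (−0.5 kb; 46396896-46488804 on chromosome 19, plus strand) from 3060 to 4190. None of these 4 start-site peaks were called in any of the 13 comparisons. On restoration the Gli1 peak changed by 0.05 ± 0.10, −0.26 ± 0.12 and −0.09 ± 0.10 in pancreas, liver and lungs, beside the falls at the Gli2 promoter.

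Distal peaks of the same genes did differ. The Smo intronic peak at +8.6 kb fell in the pancreas from 76.9, 58.1 and 56.5 to 11.6, 19.8 and 17.6, or −1.92 ± 0.43, and held 95 and 87.8 against 48.9 and 80.2 in the liver and 23, 67.4 and 80.1 against 51.7, 37.4 and 94.2 in the lungs. The Sufu intronic peak at +25.7 kb was a pancreas peak, with 212, 231 and 378 counts in Panc-Smad4OFF and 353, 318 and 93.5 in Panc-Smad4ON, and at most 56.9 in any liver or lung sample. The fibroblast marker sums were highest in the pancreas too, and their part in this Sufu peak was not tested. At Ptch1 the upstream peaks at −91.6 and −78.7 kb were, beside Gli3 −21.0 kb, the only ones of the 108 called higher on average over the organs, by 0.76 ± 0.19 and 0.93 ± 0.21. At −78.7 kb the counts went from 30.7, 33.1 and 21.3 to 35.6, 49.5 and 45.2 in the pancreas, from 11.1 and 13.9 to 21 and 34.5 in the liver and from 29.5, 18.5 and 42.2 to 75.2, 57.5 and 57.9 in the lungs, without overlap in any organ.

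Of 36 further pathway genes, listed by role, 34 had a peak. Their start-site peaks, taken as the assigned peak nearest the start site, were rarely called on restoration. In the pancreas 1 was called, Ihh, a ligand, which fell by 0.83 on the log2 scale from a mean of 640 to 362. In the liver and lungs none were. The shares of all peaks called on restoration were 3.42%, 0.55% and 0.00366% in pancreas, liver and lungs, and 6.62% averaged over the organs. Against such shares, counts this small among 34 genes do not set these genes apart from other peaks. On average over the organs Evc2, part of a ciliary complex that relays the Smo signal, and Sfrp1, a secreted Wnt inhibitor and GLI target, were higher by 1.87 and 1.12, both at distal peaks (99126 and 55136 bases away). None of the 10 genes known as GLI targets, among them Ccnd1, Mycn and Snai1, were called in the pancreas, and their median log2 fold change there was 0.05. With 3.42% of all peaks called there, a lack of calls among 10 genes cannot show whether GLI targets responded. Between organs, 5 of the 34 were called higher and 6 lower in the liver than in the pancreas with Smad4 off, against 26.2% and 32.3% of all peaks. Ihh averaged 1740 in Liv-Smad4OFF against 640 and 863 in Panc-Smad4OFF and Lung-Smad4OFF, and Jag2, a Notch ligand, 1232 against 476 and 520. Disp1, which releases the ligand, averaged 324 in Panc-Smad4OFF against 46.9 and 67.1 in Liv-Smad4OFF and Lung-Smad4OFF, and the co-receptor Gas1 1366 against 547 and 527. The ligand Dhh averaged 1140 in Panc-Smad4OFF, 934 in Liv-Smad4OFF and 1154 in Lung-Smad4OFF and was not called. Of the 6 genes for ligands and their release, 1 was called higher and 3 lower in the liver than in the pancreas with Smad4 off, with a median log2 difference of −0.50.

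Position, width and sequence, which the rule did not use beyond distance, are given for the 108 peaks beside all peaks. Introns held 57, intergenic stretches 42, promoters 7 and exons 2, or 52.8%, 38.9%, 6.48% and 1.85%, against 42.2%, 45.6%, 9.76% and 2.38% of all peaks. The median width was 624 bases against 589 and the median GC content 46.8% against 45.8%. The GLI motif was in 3 peaks (2.78% against 0.670% of all), which were Hhip +37.1 kb and Ptch1 +0.5 and −7.4 kb, and in none of the 26 Gli2 peaks. AP-1 was in 47.2% against 51.4%, TEAD in 22.2% against 15.2%, KLF in 25% against 25.5%, ETS in 5.56% against 6.56%, HNF1 in 3.70% against 3.34% and the SMAD box in 70.4% against 75.3%. A match is a description of the letters and not of a bound factor, and widths differ between peaks.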

How the data were processed

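ATAC-seq libraries of sorted mKate2+ tumor cells were analyzed from 16 mice in 6 groups, assigned from the sample labels. One further allele that all groups shared is not reported here. According to the study's methods, the authors used Trim Galore and cutadapt for trimming, Bowtie2 for alignment (mm10) and MACS2 for peaks, took out blacklisted regions, merged peaks within 500 bp into 1 atlas, counted reads with featureCounts and normalized the counts with DESeq2. The deposited values are this signal, a normalized count per peak and sample. The table is described as filtered, by a rule not given in the sources used here, as are duplicate removal and the transposase offset. Counting error would be understated if duplicates were kept, and the offset is small against the width of a peak.

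Of 136631 rows, the 1 mitochondrial row was left out. Each value divided by the value of 1 read gave whole reads (100% within 0.1), which were used for edgeR 4.0.16 and DESeq2 1.42.0 as alternatives. The fits used limma 3.58.1 (trend, robust; R 4.3.3) on log2(normalized count + 1), all 6 groups together, with 13 contrasts and Benjamini-Hochberg adjustment over all peaks, at the study's thresholds of 0.58 and 0.1. A fold change on this scale understates that of low peaks. Peaks were assigned to GENCODE vM21 basic start sites, and sequences were read from GRCm38.p6, the same build as mm10, taking start coordinates as 1-based, since the convention is not stated. The 9 genes, the pathway and marker lists and the motifs were chosen with earlier results of these data known. Replicates were separate mice. Named peaks were the peak nearest each start site, up to 4 called peaks per direction and contrast by smallest p whose samples do not overlap, and for Gli2 and Gli3 the largest called fold in each direction in each organ comparison. Of the other pathway genes up to 3 called start-site peaks per direction and contrast were named. Other peaks given were chosen after their values were seen. Sequences came from peaks called without overlap between organs or holding a GLI motif. The fits were checked on simulated data.

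The mouse numbers were checked for pairing by correlating the deviations of same-numbered samples from their group means over all peaks. In the lungs the correlations were 0.491, 0.124 and 0.214, all over 0.1. On this ground same-numbered lung mice were treated as pairs in an alternative fit, whereas the main fit paired no mice. The labels do not say what a number stands for. In the pancreas they were −0.33, 0.027 and −0.33, and in the liver 0.083 and 0.083. Depth was 22495044 to 37510981 reads in peaks, which bounds counting error only. The alternatives tried were another pseudocount, low-count filter, scaling, GC correction, tools, thresholds, assignment rules, pairing and leaving out each mouse.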

Additional observations from a re-analysis of the deposited data

Results flagged for a closer look

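At the Boc peak 73.9 kb downstream of the start site the restored samples moved in opposite directions in different organs. The normalized counts went from 41, 43.8 and 44.5 to 86.2, 48.3 and 82.8 in the pancreas and from 30.9 and 40.4 to 53.6 and 47.7 in the liver, every restored sample above every Smad4-off sample. In the lungs they went from 120, 68.5 and 66.3 to 53.9, 46 and 63.5, every restored sample below. The log2 fold changes were 0.69 in the pancreas and 0.51 in the liver against −0.59 in the lungs. limma called none of these changes and no difference between organs in the change, while DESeq2 called the difference of lungs minus pancreas, at −1.40. Lung-Smad4OFF m1, the highest sample, is 1 of the libraries that stood apart.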

How the results depend on the processing

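The 108 peaks gave counts of calls that moved with the assignment rule. With start sites within 50 kb only (59 peaks), the counts in the order liver minus lungs, liver minus pancreas and lungs minus pancreas were 33, 39 and 18 with Smad4 off and 23, 42 and 22 with Smad4 on, then 9 for restoration in the pancreas and 10 averaged over organs. With start sites of all genes (50 peaks) they were 26, 38 and 18, then 19, 38 and 21, then 9 and 10; fewer peaks enter in both. With gene bodies beyond 100 kb added, an alternative chosen after seeing the data, lungs minus pancreas gave 51 and 61. With thresholds of 1 and 0.05 it gave 20 with Smad4 off. Restoration in the liver gave 10 calls with DESeq2 (2.33% of all peaks called, against 0.55% in the main fit). It gave 3 with only the groups compared (0.0593%) and 3 with the replicate block and GC correction together (0.0578%). Restoration in the lungs gave 12 with DESeq2 (0.73% of all peaks called, against 0.00366% in the main fit). With only the groups compared it gave 0 (0%). There 29 of the 108 had an unadjusted p under 0.05 in limma, beside 27 in the main fit. No share over all peaks is given, so this count cannot set the 108 apart from other peaks. The replicate block gave 1 (0.000732%), as did that block with GC correction (0.000732%). A block for lung mice alone gave 5 (0.03%). Leaving out the 2 libraries that stood apart, also chosen after seeing the data, gave 8 (0.125%). The difference of restoration between lungs and pancreas gave 5 with DESeq2 (1.65%) and 6 with the lung block (1.75%). Beyond these, the replicate block moved no count over the 108 peaks by more than 1.5 times.

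Leaving out 1 mouse at a time gave 47 to 70, 58 to 73 and 14 to 25 calls between organs with Smad4 off, the lowest of the last without Panc-Smad4OFF m3, and 14 to 51, 50 to 78 and 29 to 49 with Smad4 on, the lowest of the first and second without Liv-Smad4ON m2. It gave 6 to 14, 1 to 4 and 0 to 4 for restoration in pancreas, liver and lungs, 19 to 26 averaged, and 0 to 0, 0 to 0 and 0 to 5 for its differences between organs. Locus sums called over the 9 genes and all contrasts were 17 to 23, beside 19 with all mice. At the Gli2 promoter the fall in the lungs was no longer called with only the groups compared or without Lung-Smad4ON m2. The Gli3 locus sum, 0.16 for liver minus lungs with Smad4 off, was not called and became −1.09, called, with the start-site peak alone. The sum holds the +74.0 kb peak, which ran against the other Gli3 peaks and made up most of the Liv-Smad4OFF sums, as given above. A sum without that peak was not tested. The liver groups have 2 mice each, and where 1 was left out the other was assumed to vary like the other groups. At a median of 36 to 76 reads per peak, differences at peaks near 0 are the least certain.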
